A study of Mus musculus with 38 samples.

Results

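The Dyrk kinases were followed on two-color Agilent arrays of mouse mammary tumors, through 8 of the 41174 probes on the array that are not controls. The members were all probes that the array files name Dyrk1a, Dyrk1b, Dyrk2, Dyrk3 or Dyrk4. Dyrk1a and Dyrk1b had 3 probes each, Dyrk3 and Dyrk4 had 1 each, and Dyrk2 had 0 and was not analysed here. The family was selected on the Dyrk3 log2 ratios of residual and untreated tumors, because Dyrk3 was higher in residual tumors with little spread, so its chemotherapy values describe the choice and carry no test. Dyrk kinases add a phosphate to a tyrosine of their own activation loop as they mature and then phosphorylate serine and threonine in other proteins. Dyrk1a and Dyrk1b, which act largely in the nucleus, restrain cell cycle entry, while Dyrk3 is known for dissolving stress granules and releasing the growth kinase complex mTORC1 from them.

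All tumor cells descended from hyperplasias of MMTV-PyMT;actin-GFP mice that were transplanted into cleared mammary fat pads of FVB/n hosts, and GFP-positive cells were sorted. The MMTV promoter drives the PyMT oncogene in mammary epithelium and in other organs, and the actin promoter labels every cell of donor origin with GFP. In the chemotherapy experiment, treatment with docetaxel, doxorubicin and cyclophosphamide (TAC) began 2 months after transplantation. It comprised 6 untreated tumors (labelled control), 6 residual tumors taken after the first dose (labelled regressed) and 4 relapsed tumors taken after the fourth dose (labelled resistant, the remaining treated group). The progression experiment comprised 5 adenomas, which are early outgrowths, 6 carcinomas, which are late outgrowths, 6 samples of disseminated cells sorted from lungs of mice with late outgrowths, and 5 samples of lung metastases that arose after the primary tumor was removed. The progression samples carry no treatment in their labels, and lungs of several mice were pooled for disseminated cells. The labels do not say whether replicates came from separate animals, so p-values measure the spread between these samples, which may in part be technical. Every array paired the Cy5-labelled sample with the same Cy3-labelled Universal mouse reference, with no dye swap, and each value below is a log2 ratio of sample to reference. RNA of the progression experiment went through a second round of amplification, so no level was compared between the experiments.

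The sample channel was well above background at 50.5 to 64.3% of the spots on the chemotherapy arrays and at 48.4 to 78.9% on the progression arrays. Carcinoma replicate 6, disseminated replicate 6 and metastases replicate 4 stood apart from their groups, with a median correlation to the other arrays of the group of 0.769, 0.685 and 0.782. Slides 1 to 3 of the progression experiment held carcinomas and metastases, and slides 4 to 6, scanned on another day, held adenomas and disseminated cells. Carcinoma against adenoma, disseminated cells against carcinoma, metastases against adenoma and metastases against disseminated cells therefore cannot be told apart from slide and scan day. Disseminated cells shared slides with adenomas, and metastases with carcinomas. Their differences within slides are given as values, beside tests from a model without a slide term.

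The Dyrk3 probe lies on chromosome 1 at 131032677 to 131032736 of mouse build mm7, on the minus strand. The Dyrk1a probes lie on the plus strand of chromosome 16, the upstream probe at 94985124 to 94985183, the middle probe at 94998113 to 94998172 and the downstream probe at 95000492 to 95000551. Those of Dyrk1b lie on the plus strand of chromosome 7, the upstream probe at 25119896 to 25120287, the middle probe at 25120569 to 25120628 and the downstream probe at 25121044 to 25121103. The Dyrk4 probe lies on chromosome 6 at 126902346 to 126902405, on the minus strand. Exons and untranslated regions of this build were not annotated here. The 7 probes of Dyrk1a, Dyrk1b and Dyrk3 were well above background in the sample channel in all 266 of their values.

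Dyrk3 stood above the reference in every tumor of the chemotherapy experiment and was highest after treatment. In the untreated tumors its log2 ratio had a lowest value of 1.62, a median of 1.96 and a highest value of 2.06. In the residual tumors the lowest value was 2.64, the median 2.80 and the highest 2.99. All 6 residual tumors lay above all 6 untreated tumors, and the untreated group was narrow apart from replicate 2, which was the lowest. The gene was chosen on these same values, so this separation adds no evidence. The share of all probes without overlap between these groups is not reported here. Between the group means of 1.93 ± 0.16 (SD, n = 6) and 2.80 ± 0.12 (SD, n = 6) the difference was 0.87 (SE 0.110), or 1.83-fold. Across all probes, 0.17% passed an adjusted p of 0.05 between these groups, a figure printed for scale only, since this difference chose the gene. On the slide that held both groups, the difference was 0.82, from 2 residual tumors and 1 untreated tumor.

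The relapsed tumors stood at Dyrk3 log2 ratios of 2.94, 2.76, 2.22 and 2.79 in replicates 1 to 4. Replicate 3 was the lowest of them and still exceeded the highest untreated tumor. Their mean of 2.68 ± 0.31 (SD, n = 4) was 0.75 above the untreated mean (SE 0.123, 1.68-fold). The share of all probes that passed between relapsed and untreated tumors was 0.00486%, again printed for scale only, since the untreated values also chose the gene. Relapsed and residual tumors overlapped, with a difference of -0.12 (SE 0.123). These comparisons share samples and are set side by side, without a test. Within slides, relapsed minus untreated was 0.49 and relapsed minus residual was 0.026, each from 2 relapsed tumors against 1 tumor.

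The movement lay in the sample channel of the Dyrk3 probe. Its mean log2 intensity in that channel was 11.38 without treatment, 12.27 in residual tumors and 12.19 in relapsed tumors. The reference channel, which held the same RNA on all arrays, stood at 9.46, 9.47 and 9.51.

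**Figure D1:**
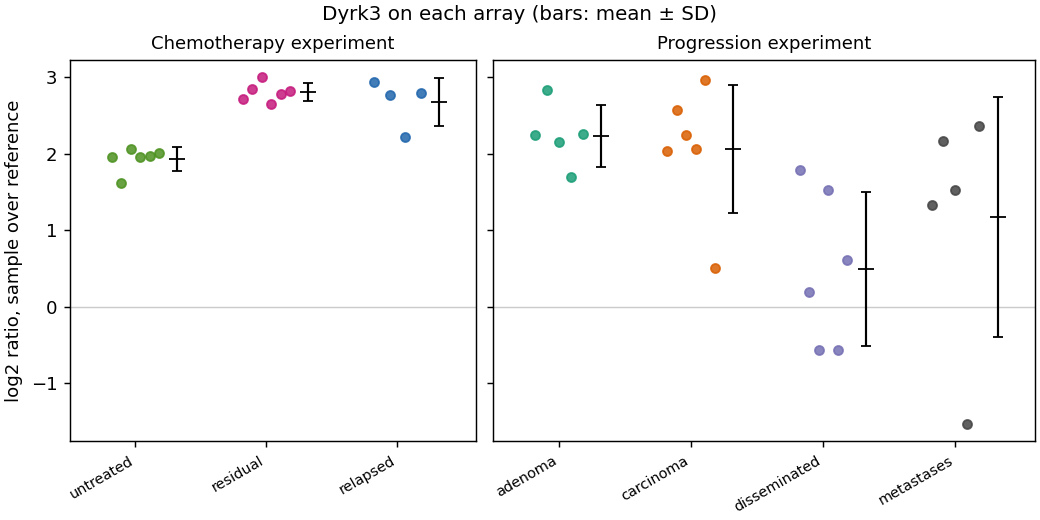
Dyrk3 log2 ratio of sample to reference on each array, with 1 point per sample and the group mean ± SD as a bar beside it, for the chemotherapy experiment on the left and the progression experiment on the right. The 6 residual tumors lie above the 6 untreated tumors, and the disseminated cells and metastases spread more widely than the adenomas.

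The cell type markers read beside Dyrk3 overlapped between the chemotherapy groups. The mean log2 ratio of 8 mammary epithelium markers, all above background on every array, ranged from 4.31 to 4.63 without treatment, from 4.29 to 4.83 in the residual group and from 4.39 to 4.92 in the relapsed group. The mean of 8 macrophage markers ranged over the same groups from -0.50 to 2.16, from -0.80 to 1.42 and from -0.95 to 0.66. Against untreated tumors the median change of this list was -0.69 in residual tumors, with 1 of 8 genes higher. In relapsed tumors it was -0.97, with 0 of 8 higher, and 0 genes of the list passed by limma in either comparison. Untreated replicate 2, the lowest in Dyrk3, had the highest macrophage mean, and relapsed replicate 3, the lowest of its group in Dyrk3, had the highest macrophage mean of its group. Other tumors did not follow this order. Residual replicate 2 had the highest macrophage mean of its group, 1.42, with a Dyrk3 ratio of 2.84. Untreated replicate 3, the highest untreated tumor in Dyrk3 at 2.06, had a macrophage mean of 1.58. In bulk RNA, fewer cells of a type and less RNA per cell cannot be told apart. Dyrk3 was first described in erythroid cells, and the means of the 5 erythroid markers measured overlapped between the groups, from 0.07 to 0.77 without treatment, 0.30 to 0.74 in the residual group and -0.21 to 1.55 in the relapsed group.

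Dyrk1a, which phosphorylates NFAT factors and the DREAM complex subunit Lin52, had a higher mean in residual than in untreated tumors at each of its probes, with overlapping groups. Its upstream probe had a median of -0.41 in untreated tumors (lowest -0.55, highest -0.11) and of -0.17 in residual tumors (lowest -0.46, highest 0.19). For the downstream probe the median was 0.77 in untreated tumors (lowest 0.48, highest 1.21) and 1.18 in residual tumors (lowest 0.85, highest 1.57). The groups overlapped at both probes. Residual minus untreated was 0.26 (SE 0.101) at the upstream probe, 0.11 (SE 0.105) at the middle probe and 0.34 (SE 0.155) at the downstream probe. These are given as values because the choice of the family used this contrast.

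Dyrk1b, a kinase linked to quiescence, was divided within the untreated group at its middle and upstream probes and not at its downstream probe. At the middle probe, untreated replicates 1, 2 and 3 stood at 1.86, 1.65 and 1.94, and replicates 4, 5 and 6 at 0.56, 0.78 and 0.63. The residual tumors ranged from 0.66 to 1.80, across the gap between these sets, and the difference of the means was -0.16. On the same untreated arrays the macrophage means were 1.60, 2.16 and 1.58 in replicates 1 to 3 and -0.50, -0.50 and -0.25 in replicates 4 to 6, and their part in the Dyrk1b values was not tested. The upstream and downstream Dyrk1b probes differed by -0.037 and 0.040 between residual and untreated tumors.

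No member that was tested passed in the relapsed tumors. By limma, 0 of the 7 member probes other than Dyrk3 passed an adjusted p of 0.05 between relapsed and untreated tumors, or between relapsed and residual tumors, where 0.226% of all probes passed. At an unadjusted p below 0.05 there were also 0 of 7 in each, beside 3141 and 3035 of the 41174 probes. The lowest unadjusted p was 0.0749 and 0.124. The widest interval among the Dyrk1a and Dyrk1b probes between relapsed and residual tumors ran from -0.51 to 0.75, at the middle probe of Dyrk1b, so differences of that size were not detectable with these arrays. Dyrk1b was uneven among the relapsed tumors, with downstream values of 1.21, -0.12, 1.05 and 0.25.

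Dyrk4, a member known mainly from testis, gave only a bound. Its probe was well above background in the sample channel on 1 of 38 arrays, disseminated replicate 4, and no fold is given.

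**Figure D2:**
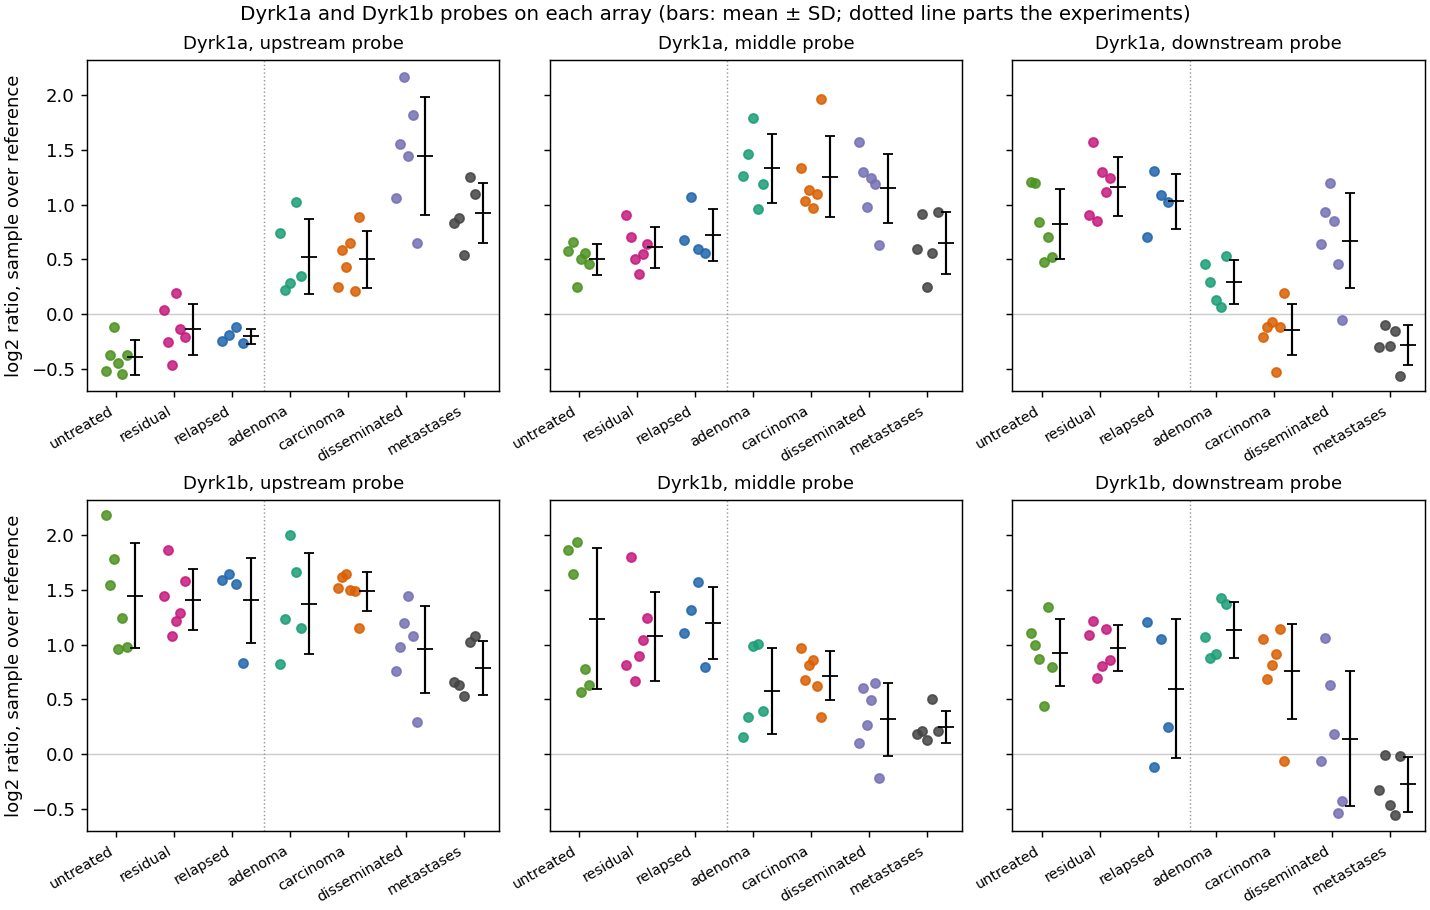
Log2 ratio of sample to reference on each array for the 3 Dyrk1a probes (top) and the 3 Dyrk1b probes (bottom), with 1 point per sample, the group mean ± SD as a bar and a dotted line between the experiments, whose levels are not comparable. Among the progression groups, disseminated cells have the highest mean at the upstream and downstream Dyrk1a probes and not at the middle probe, and metastases have the lowest mean at all 3 Dyrk1b probes.

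In the progression experiment Dyrk3 fell in disseminated cells. The adenomas stood at 2.24, 2.82, 2.15, 1.69 and 2.26 in replicates 1 to 5, and the carcinomas had a lowest value of 0.51, a median of 2.15 and a highest value of 2.96. The disseminated cells had a lowest value of -0.56, a median of 0.40 and a highest value of 1.78. Of the 6 disseminated samples, 5 lay below every adenoma, and the remaining sample lay above the lowest adenoma.

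Against adenomas (mean 2.23 ± 0.40, SD, n = 5), disseminated cells (0.50 ± 1.01, SD, n = 6) differed by -1.73 (SE 0.594, 3.33-fold lower), with an adjusted p of 0.0477 by limma. On the 3 slides that held both groups the difference was -0.77, -3.10 and -1.29, lower each time. Carcinomas averaged 2.06 ± 0.84 (SD, n = 6), and disseminated cells differed from them by -1.57 (SE 0.566, 2.96-fold lower, adjusted p = 0.0489 by limma). Both calls sat at the threshold. With carcinoma replicate 6 and metastases replicate 4 left out of the fit, the changes were -1.75 (adjusted p = 0.00350) and -1.89 (adjusted p = 0.00121). This exclusion was chosen after the data were seen, and both samples were the lowest of their groups in Dyrk3. Disseminated replicate 6, which also stood apart from its group, was kept, so these p-values do not make the calls firmer. Each call of the full fit was lost when any of 9 single replicates was left out, with adjusted p up to 0.113 and 0.112, the highest without disseminated replicate 5 and changes of -1.52 and -1.35. The calls held without disseminated replicate 1 or 4 and, against carcinoma, without carcinoma replicate 6.

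The metastases were divided. Their Dyrk3 values were 1.33, 2.17, 1.52, -1.53 and 2.35 in replicates 1 to 5, so that replicates 2 and 5 lay among the carcinomas and replicate 4 below every other sample of the experiment. The mean of 1.17 ± 1.57 (SD, n = 5) differed from carcinomas by -0.89 (adjusted p = 0.327) and from adenomas by -1.06 (adjusted p = 0.219), neither of which passed. Within the 3 slides shared with carcinomas the difference was -0.38, -2.24 and 0.43, and slide 2 held replicate 4. Without replicate 4 the difference from carcinomas was -0.22. Metastases exceeded disseminated cells by 0.67 (adjusted p = 0.516). With carcinoma replicate 6 and metastases replicate 4 left out, an exclusion chosen after the data were seen, the difference was 1.36 (adjusted p = 0.0312). Carcinomas and adenomas differed by -0.17, with a 95% interval from -1.42 to 1.08.

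Markers of other cells moved with Dyrk3 across the progression arrays. The mean of the 8 mammary epithelium markers ranged from 3.13 to 4.01 in adenomas, from 2.72 to 4.51 in carcinomas, from 0.33 to 3.77 in disseminated cells and from 0.31 to 5.08 in metastases. The mean of the 8 macrophage markers ranged from -0.49 to 0.27, from -0.50 to 4.83, from 3.46 to 5.08 and from 0.98 to 5.31 in the same groups. None of the markers in these lists was below background on every array of a group.

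The samples lowest in Dyrk3 were also low in epithelial and high in macrophage markers. Metastases replicate 4, at a Dyrk3 log2 ratio of -1.53, had a mammary epithelium mean of 0.31 and a macrophage mean of 5.31, the lowest and the highest of the 22 arrays. Disseminated replicates 3 and 5, both at -0.56, had epithelium means of 0.33 and 0.58. Carcinoma replicate 6, at 0.51, had a macrophage mean of 4.83 against at most 0.51 in the other carcinomas. Other samples did not follow this order. Disseminated replicate 6 had a Dyrk3 ratio of 0.61 and an epithelium mean of 3.77, the highest of its group. Disseminated replicate 1 had the highest Dyrk3 ratio of its group, 1.78, together with its highest macrophage mean, 5.08. Metastases replicate 3 had a Dyrk3 ratio of 1.52 and a macrophage mean of 4.47. With the macrophage mean as a covariate, disseminated minus adenoma for Dyrk3 became 0.16 and disseminated minus carcinoma -0.058, and with the epithelium mean they became -0.45 and 0.033, none of which passed (adjusted p from 0.464 to 0.975). These covariates were chosen after the data were seen. The macrophage mean did not overlap between adenomas and disseminated cells, and among carcinomas only replicate 6 reached the disseminated range. In the epithelium mean, only disseminated replicate 6 reached the adenoma range. The covariates thus largely repeat the group, so these fits cannot tell what part other cells had in the Dyrk3 difference, which was not tested.

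Alveolar macrophage and lung epithelium lists were higher in the lung samples, whereas neutrophil and erythroid lists were highest in disseminated cells. Alveolar macrophage means ranged from 3.88 to 5.80 in disseminated cells and from 2.34 to 4.84 in metastases, against -0.22 to 2.10 in adenomas and carcinomas. Lung epithelium means ranged from 1.95 to 4.01 in the lung samples and from 0.33 to 1.51 in the others. The neutrophil mean had a median of 1.81 in adenomas, 2.31 in carcinomas, 5.31 in disseminated cells and 2.25 in metastases, and reached 3.99 in a carcinoma. The erythroid mean had a median of 0.53, 0.96, 1.58 and 0.84 in the same groups. Metastases therefore did not stand above carcinomas in the medians of these 2 lists.

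**Figure D3:**
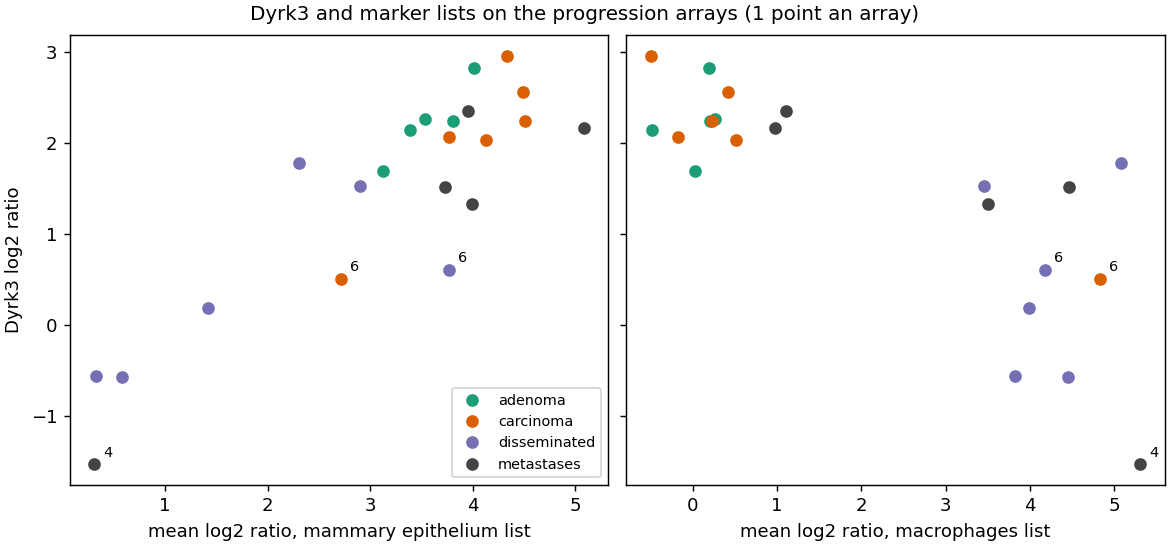
Dyrk3 log2 ratio (vertical axis) against the mean log2 ratio of the mammary epithelium list (left) and of the macrophage list (right), with 1 point for each of the 22 progression arrays, colored by group, and with carcinoma replicate 6, disseminated replicate 6 and metastases replicate 4 numbered. Metastases replicate 4 has the lowest Dyrk3 and epithelium values and the highest macrophage value.

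Dyrk1a was higher in disseminated cells at some of its probes. At the upstream probe the disseminated cells stood at 1.06, 1.55, 2.17, 1.44, 1.81 and 0.65 in replicates 1 to 6, against a highest adenoma of 1.02 and a highest carcinoma of 0.89. Of the 6 disseminated samples, 5 exceeded every adenoma and every carcinoma, and replicate 6 was the exception. The change was 0.92 against adenoma (SE 0.220, adjusted p = 0.00761) and 0.95 against carcinoma (SE 0.210, adjusted p = 0.00315).

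The downstream Dyrk1a probe rose against carcinoma by 0.81 (SE 0.164, adjusted p = 0.00165). Its change against adenoma was 0.38 (adjusted p = 0.136). The middle probe differed by -0.18 against adenoma and by -0.10 against carcinoma, with a 95% interval from -0.49 to 0.28 against carcinoma, so the 3 probes of the gene disagreed in disseminated cells. Within the slides shared with adenomas, the upstream difference was -0.027, 1.70 and 1.21. With the macrophage mean as a covariate the upstream change against carcinoma was 0.83 and its adjusted p 0.127.

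In metastases the order of the Dyrk1a probes was different. The middle probe fell by 0.61 against carcinoma (SE 0.191, adjusted p = 0.0291) and by 0.68 against adenoma (SE 0.199, adjusted p = 0.0152). All 5 metastases, from 0.25 to 0.93, lay below the lowest carcinoma at 0.97 and the lowest adenoma at 0.96. The call against carcinoma was lost without carcinoma replicate 6, the highest of its group at 1.96, where the change was -0.47 and the adjusted p 0.0939. It was also lost without carcinoma replicate 1 or metastases replicate 1, 3 or 4.

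The downstream Dyrk1a probe fell in metastases by 0.58 against adenoma (adjusted p = 0.0218, a call lost without adenoma replicate 5 or metastases replicate 5) and by 0.95 against disseminated cells (SE 0.172, adjusted p = 0.00166). The metastases, from -0.57 to -0.10, did not overlap with either group, since the lowest adenoma was at 0.07 and the lowest disseminated sample at -0.05. At the upstream probe the metastases differed by 0.42 from carcinomas (adjusted p = 0.194) and by -0.52 from disseminated cells (adjusted p = 0.128).

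Dyrk1b fell in metastases at its downstream and upstream probes, the more so at the downstream probe. There the metastases stood at -0.33, -0.01, -0.46, -0.56 and -0.01, the adenomas from 0.88 to 1.43, and the carcinomas from -0.06 to 1.14. No metastasis reached an adenoma, and the single low carcinoma was replicate 6. The change was -1.40 against adenoma (SE 0.264, adjusted p = 0.000677) and -1.03 against carcinoma (SE 0.252, adjusted p = 0.00724). Within the slides shared with carcinomas it was -1.04, -1.37 and -0.55. Without carcinoma replicate 6 it was -1.22.

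The upstream Dyrk1b probe fell in metastases by 0.70 against carcinoma (SE 0.198, adjusted p = 0.0165) with no overlap, the metastases at most 1.08 and the carcinomas at least 1.15. Within slides that difference was -0.75, -0.74 and -0.69. Against adenoma it fell by 0.59 (adjusted p = 0.0391), a call lost without adenoma replicate 3 or 4 or metastases replicate 1, 2 or 3. The middle probe differed by -0.47 from carcinoma (adjusted p = 0.0593) and by -0.33 from adenoma (adjusted p = 0.188).

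In disseminated cells Dyrk1b was also low at the downstream probe, and replicates differed widely. The lowest value was -0.53, the median 0.06 and the highest 1.06, and 5 of the 6 samples lay below every adenoma. The change against adenoma was -0.99 (SE 0.252, adjusted p = 0.0110), and within slides it was -1.49, -1.07 and -0.29. Against carcinoma it was -0.62 (adjusted p = 0.0670). At the upstream probe it fell by 0.53 against carcinoma (adjusted p = 0.0461), a call lost in 9 of the 12 fits that left out 1 replicate, with adjusted p up to 0.108, and kept without carcinoma replicate 6 or disseminated replicate 3 or 4.

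**Figure D4:**
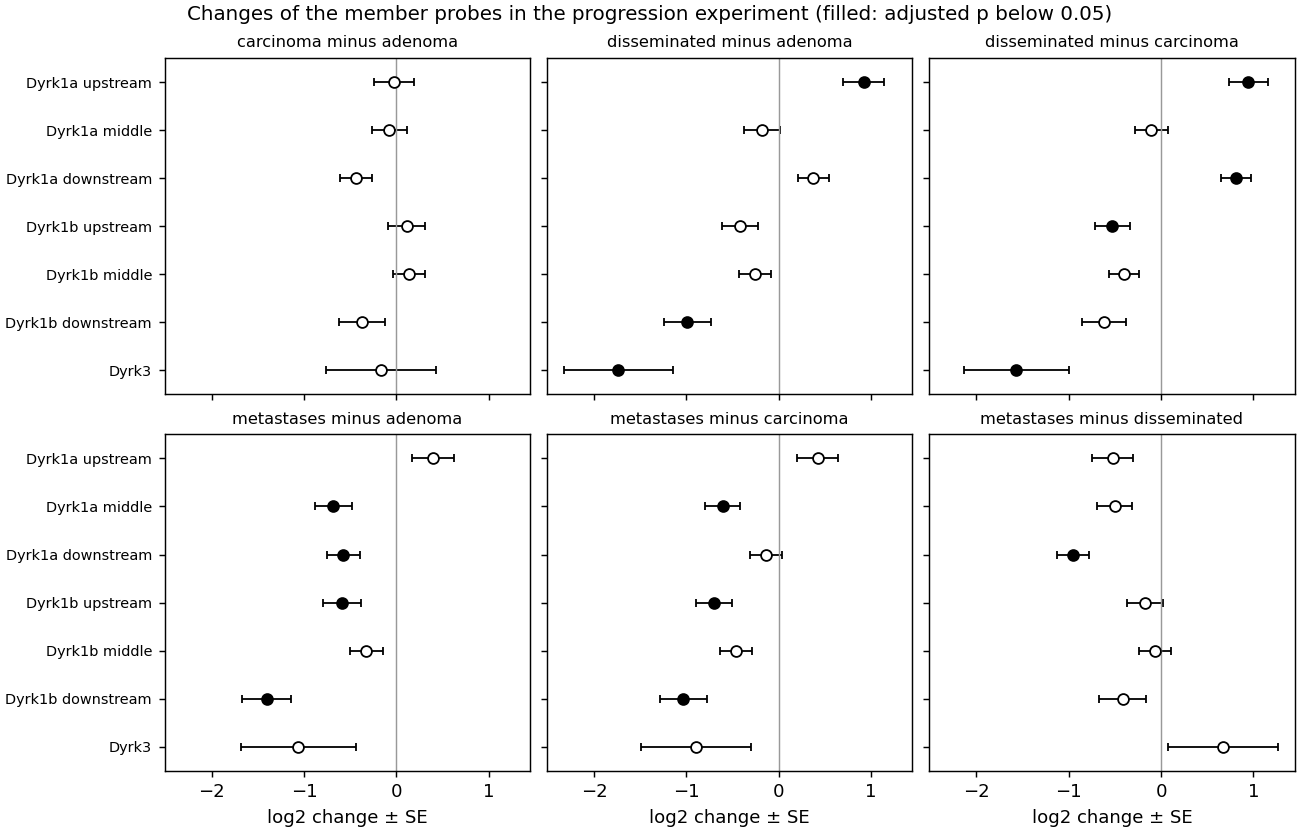
Log2 change ± SE of the Dyrk1a, Dyrk1b and Dyrk3 probes in the 6 progression comparisons, with filled points for an adjusted p below 0.05 by limma. Dyrk3 has the widest errors, and both filled Dyrk3 points are disseminated cells against a primary tumor.

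Over the 8 probes the calls were few and are set beside the share of all probes that passed. Between disseminated cells and adenomas, 1 passed as higher and 2 as lower, where 18.2% of all probes passed, 7.57% as higher and 10.6% as lower. Disseminated cells against carcinomas gave 2 higher and 2 lower, with 24.7% of all probes, 9.49% as higher and 15.2% as lower. In metastases every call was lower. There were 4 against adenomas, with 27.5% of all probes called and 14.4% as lower, 3 against carcinomas, with 21.1% called and 12.1% as lower, and 1 against disseminated cells, with 12.9% called and 5.94% as lower. Carcinomas against adenomas gave 0 of 8 by limma, with 11.5% of all probes passing. At an unadjusted p below 0.05 there was 1 of 8, the downstream Dyrk1a probe, beside 11088 of the 41174 probes. Groups did not overlap for 3, 2 and 1 of the 8 probes when metastases were set against adenomas, carcinomas and disseminated cells, where 20.6%, 13.4% and 4.33% of all probes did not overlap. The median change of the 8 probes was -0.54 between metastases and carcinomas, beside -0.032 over all probes. Dyrk1a and Dyrk1b have 3 of the 8 probes each, and every call in metastases came from these genes. The counts and this median are therefore not of independent members. With the macrophage mean as a covariate, 0 probes passed in disseminated cells against either primary tumor or in metastases against carcinomas. The Dyrk1a middle and downstream probes still passed in metastases against adenomas, and the downstream probe against disseminated cells. Apart from carcinoma replicate 6, every lung sample had a higher macrophage mean than every primary tumor. The covariate thus nearly repeats the group, so a lost call does not tell what part macrophages had, which was not tested.

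The genes whose log2 ratios were most like those of Dyrk3 differed between the experiments. Over the 16 chemotherapy arrays, among 16407 probes above background on all of them, Pearson's r was 0.911 for Phlda3, 0.894 for Psrc1, 0.892 for A930001C03Rik, 0.875 for Rprm and 0.866 for Herpud2. Within the groups, after subtraction of each group's mean, r was lower, at 0.455, 0.678, 0.701, 0.719 and 0.450 in the same order, so that part of each likeness is the step between untreated and treated tumors on which Dyrk3 was chosen. Rprm averaged 1.21 in untreated tumors and 3.25 in both treated groups, and Phlda3 averaged -0.93 in untreated, 0.60 in residual and 0.63 in the relapsed tumors. Over the 22 progression arrays, among 15695 probes, r was 0.936 for Plekhh1, 0.934 for Pkp3, 0.928 for Tfap2c, 0.928 for Ttc39a and 0.927 for Mex3a, and within the groups it was 0.894 for Mex3a, the lowest of the 5, and 0.916 for Plekhh1, the highest. Pkp3 averaged 3.54 in adenomas, 3.74 in carcinomas, 2.03 in disseminated cells and 2.75 in metastases. These correlations describe the arrays, which share their groups and slides, and were the highest of many searched.

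Genes around the family were read from 6 lists with 56 genes, all measured. In the chemotherapy experiment 1 of the 56 passed by limma between residual and untreated tumors, where 0.17% of all probes passed. For relapsed tumors 0 passed, beside 0.00486% of all probes against untreated and 0.226% against residual tumors. An unadjusted p below 0.05 was found for 8 genes in residual against untreated, 6 in relapsed against untreated and 7 in relapsed against residual tumors. Of the 41174 probes, 3647, 3141 and 3035 reached it in the same order. The passing gene was Mdm2, a ubiquitin ligase that acts on p53 and on Dyrk2. It rose by 1.10 (SE 0.195, adjusted p = 0.0338), a call lost with a normexp offset of 0 and with slide as a fixed block. In the progression experiment 1 gene passed as higher and 7 as lower in carcinomas against adenomas (11.5% of all probes passed), 9 and 7 in disseminated cells against carcinomas (24.7%), 10 and 15 in metastases against adenomas (27.5%), and 4 and 7 in metastases against disseminated cells (12.9%). Disseminated cells against adenomas gave 4 higher and 7 lower (18.2% of all probes), and metastases against carcinomas 13 higher and 12 lower (21.1%). These last comparisons, whose groups shared slides, are described by list below, from the model without a slide term. With so many probes passing, a count of list genes near these shares is not a result about the list. The marker differences of these groups, given above, lie beside all of these counts, and their part in them was not tested.

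Genes of mTORC1 and stress granules, the structures tied to Dyrk3, gave 1 of 10 between disseminated cells and adenomas, where 18.2% of all probes passed. That gene was Akt1s1, the mTORC1 inhibitor that Dyrk3 phosphorylates, which fell from a mean log2 ratio of -0.91 in adenomas to -1.91 in disseminated cells (adjusted p = 0.00113). Between metastases and carcinomas 1 was higher and 4 lower, beside 8.97% and 12.1% of all probes, with a median change over the list of -0.63 beside -0.032 over all probes. G3bp2, a stress granule scaffold, rose by 2.06 (adjusted p = 7.70e-05), the deacetylase Sirt1 fell by 1.56 (adjusted p = 0.0334) and the RNA-binding protein Tial1 fell by 0.96 (adjusted p = 0.0130).

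The DREAM complex represses the cell cycle once Dyrk1a has phosphorylated Lin52. Of 12 genes listed with it, 2 were higher and 3 lower in disseminated cells than in adenomas, beside 7.57% and 10.6% of all probes. The pocket protein Rbl2 rose by 1.29 (adjusted p = 0.0446) and Lin52 rose by 0.99 (adjusted p = 0.0402). Mybl2, counted in this list although it activates late cell cycle genes, fell by 1.21 (adjusted p = 0.00560). In metastases against carcinomas 5 were higher and 2 lower, beside 8.97% and 12.1% of all probes. Lin52 rose by 1.56 (adjusted p = 0.00271), the DNA-binding subunit Lin54 rose by 1.33 (adjusted p = 0.0185) and the histone chaperone Rbbp4 fell by 1.44 (adjusted p = 0.00134).

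The calcineurin-NFAT list, whose transcription factors Dyrk1a sends out of the nucleus, had 1 of 11 higher and 1 lower in disseminated cells against adenomas, about the share of all probes that passed (18.2%). Nfatc1 rose by 1.45 (adjusted p = 0.0126) and the calcineurin regulator Rcan3 fell by 0.74 (adjusted p = 0.0275). In metastases against carcinomas 2 were higher and 1 lower, where 21.1% of all probes passed. The calcineurin subunits Ppp3cb and Ppp3ca rose by 1.08 (adjusted p = 0.0211) and 0.72 (adjusted p = 0.0179), and Nfatc3 fell by 1.26 (adjusted p = 0.0206).

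Of 7 cell cycle and signaling substrates of Dyrk1a and Dyrk1b, 2 were lower in disseminated cells than in adenomas and 2 in metastases than in carcinomas, where 10.6% and 12.1% of all probes passed as lower. The receptor signaling inhibitor Spry2 fell by 1.60 (adjusted p = 0.0336) and the transcription factor Foxo1 by 1.12 (adjusted p = 0.0423) in disseminated cells. In metastases Foxo1 fell by 1.12 (adjusted p = 0.0382) and Gli1, the Hedgehog effector, by 0.54 (adjusted p = 0.00145). Among 7 partners of Dyrk proteins, 1 was higher and 0 lower in disseminated cells than in adenomas, beside 7.57% of all probes passing as higher. This gene was Dcaf7, an adaptor that binds Dyrk1a and Dyrk1b, which rose by 0.91 (adjusted p = 0.0214). In metastases against carcinomas 3 were higher and 0 lower, beside 8.97% of all probes as higher. The ligase adaptor Ddb1 rose by 1.19 (adjusted p = 0.0188) and Mdm2 by 1.17 (adjusted p = 0.0129), and the other gene is not reported here.

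The 9 related kinases of the Hipk and Clk families with Prpf4b gave 0 calls by limma in disseminated cells against adenomas, where 18.2% of all probes passed. At an unadjusted p below 0.05 there were 3 of the 9, beside 13191 of the 41174 probes. In metastases against carcinomas 2 were higher and 3 lower, where 21.1% of all probes passed. Hipk2, a kinase that responds to DNA damage, rose by 1.48 (adjusted p = 0.0116), and the splicing kinase Clk2 rose by 1.06 (adjusted p = 0.00268). Prpf4b, another splicing kinase, fell by 1.10 (adjusted p = 0.0104).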

How the data were processed

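Gene expression was measured on 38 two-color arrays with 45018 spots each. The authors deposited the scanner's spot intensity values, without normalization, from Agilent Feature Extraction 10.7 (version from the submitters' processing notes), and a matrix of log2 ratios that the authors had made with normexp background correction and loess normalization within arrays. Probe positions are those of the array files, in build mm7.

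Calculations were made in limma 3.58.1 under R 4.3.3 (with statmod 1.5.0 and version 1.17.8 of data.table). The intensities went through normexp background correction (offset 50), loess normalization of each array and quantile normalization over each experiment. Spots flagged as outliers were left out, and spots of a probe were averaged. All 41174 probes entered 1 limma model per experiment, without covariates, and p-values were adjusted by the Benjamini-Hochberg method over all of them. A probe passed at an adjusted p below 0.05. Tests are two-sided. Intervals are 95% intervals of the fitted change. The number of arrays limits the precision.

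The members and lists were chosen with earlier results of these data known. All member probes are described, with up to 3 passing genes of largest change per list in the comparisons described for it and the 5 genes most correlated with Dyrk3 in each experiment. A listed gene was read from its probe of highest mean signal, and cell types from 10 marker lists, of which those with values beside a result are printed. Some listed genes are not reported here.

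Alternatives tried were the deposited log2 ratios, the scanner's processed signals, a normexp offset of 0, omission of normalization between arrays, exclusion of dim probes (above background on under 50% of arrays), 1 probe per gene name, a block for slide (fixed or random) or for replicate number, omission of each replicate, and an equal-variance t-test without moderation, for which the methods name no form. Covariates for macrophage and mammary epithelium markers, and leaving out carcinoma replicate 6 with metastases replicate 4, were added after the data were seen. The procedure was tested on simulated data.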

Additional observations from a re-analysis of the deposited data

Results flagged for a closer look

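Of the 56 groups of values (8 probes in 7 groups), 7 held a sample far from the others, where chance flags about 1 group in 20. The Dyrk3 log2 ratio was 1.62 in untreated replicate 2, against 1.96 to 2.06 in the other untreated tumors, and -1.53 in metastases replicate 4, against 1.33 to 2.35 in the other metastases. At the middle Dyrk1a probe, carcinoma replicate 6 stood at 1.96 and the other carcinomas at 0.97 to 1.33. At the upstream Dyrk1b probe the same sample stood at 1.15, below the others at 1.49 to 1.64, and relapsed replicate 4 stood at 0.83, below the other relapsed tumors at 1.55 to 1.65. Metastases replicate 4 was the highest metastasis at the middle Dyrk1b probe, with 0.50 against 0.13 to 0.21. The Dyrk4 value of residual replicate 1 was -0.23 against -0.73 to -0.61, at a probe not well above background in that group. Carcinoma replicate 6 and metastases replicate 4 account for 4 of the 7 and also had the highest macrophage means of their groups (4.83 and 5.31), and the part of macrophages in these values was not tested.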

How the results depend on the processing

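The Dyrk3 difference between residual and untreated tumors, given without a test, ran from 0.70 with slide as a fixed block to 0.94 without normalization between arrays, and from 0.81 to 0.90 with a replicate left out. Relapsed minus untreated ran from 0.61 to 0.81 over the alternatives and from 0.66 to 0.90 with a replicate left out, and relapsed minus residual from -0.14 to -0.092 and from -0.21 to 0.030.

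In the progression experiment, Dyrk3 in disseminated cells against adenoma no longer passed with the deposited log2 ratios (-1.70), no normalization between arrays (-1.49), processed signals (-1.80), the replicate block (-1.59) or the epithelium covariate (-0.45), and was 0.16 with the macrophage covariate. Against carcinoma it no longer passed with the deposited log2 ratios (-1.61), the t-test (-1.57), no normalization between arrays (-1.60), processed signals (-1.70), slide as a random block (-1.57), the replicate block (-1.57) or the macrophage covariate (-0.058), and was 0.033 with the epithelium covariate. With the macrophage covariate, metastases differed by 0.33 from adenoma and by 0.11 from carcinoma, and carcinoma from adenoma by 0.22. With the epithelium covariate, metastases differed by -0.94 from adenoma, which passed (adjusted p = 0.0292), and by -0.49 from disseminated cells. Carcinoma minus adenoma was 0.11 without normalization between arrays and 0.14 with carcinoma replicate 6 and metastases replicate 4 left out, where metastases minus disseminated cells was 1.36 and passed. With a replicate left out, the Dyrk3 change ran from -1.99 to -1.52 for disseminated cells against adenoma, from -1.88 to -1.35 against carcinoma, from -1.36 to -0.39 for metastases against adenoma, from -1.21 to -0.22 against carcinoma, from 0.38 to 1.35 against disseminated cells and from -0.35 to 0.14 for carcinoma against adenoma.

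Of the 8 probes, the number passing for disseminated cells against adenoma became 1 with 1 probe per gene name or no normalization between arrays and 0 with either covariate. Against carcinoma it became 2 with 1 probe per gene name, the deposited log2 ratios, the t-test, no normalization between arrays, slide as a random block or the epithelium covariate and 0 with the macrophage covariate, and ran from 2 to 6 with a replicate left out, 6 without carcinoma replicate 6. For metastases it became 2 against adenoma with 1 probe per gene name, no normalization between arrays or the macrophage covariate, 0 against carcinoma with the macrophage covariate, and against disseminated cells 0 with 1 probe per gene name and 2 without normalization between arrays or with both doubted samples left out, and it ran from 1 to 3 there with a replicate left out, 3 without disseminated replicate 6. It became 1 for carcinoma against adenoma with the deposited log2 ratios. One probe per gene name tests fewer probes, and the cause of the other shifts was not tested.

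Same-numbered replicates correlated over 0.1 in 6 of 14 and 8 of 31 pairs. Differently numbered replicates were not correlated for comparison, so these counts cannot tell whether the numbers pair the samples. With slide as a fixed block the passing genes became 8 of the mTORC1 and stress granule list and 5 of the partners in metastases against carcinoma, and 2 of the mTORC1 list and 2 of the related kinases in disseminated cells against adenoma. With a normexp offset of 0 the passing genes became 1 for NFAT in carcinoma against adenoma and 1 for the substrates in metastases against adenoma. Over the Dyrk1a and Dyrk1b probes and the lists, 439 values were scored as unchanged, 48 kept the direction and lost the call, and 8 counts moved. Unchanged meant the same direction and call for a tested value, and a count near its main value. For an untested value it meant a shift smaller than the larger group SD, whatever the sign. The untested Dyrk1b upstream difference between residual and untreated tumors, scored as unchanged, ran from -0.13 to 0.11 with a replicate left out. Over Dyrk3 and the counts of passing probes, 300 values kept theirs, 30 lost the call, 2 gained it, 28 moved and 9 changed direction, all 9 of them for Dyrk3 in the progression experiment.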
